A study of Mus musculus with 2 samples.

Results

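The C4b and Rbp4 alveolar fibroblasts were 136 of the 4581 filtered cells of 2 single-cell RNA libraries of mouse lung, and 136 of the 1008 alveolar fibroblasts in them. They were chosen cell by cell from unique molecular identifiers (UMIs, each standing for 1 captured transcript). A fibroblast first had to have more UMIs of the alveolar genes Npnt, Tcf21, Limch1, Ces1d, Fgfr4 and Slc7a10 than of adventitial, myofibroblast or pericyte genes. It then had to lie below set limits of the chemokines Cxcl9, Cxcl10 and Ccl7 (0.5% of UMIs) and of Fst, Tnc, Tfpi2 and Wisp1 (3 UMIs). Last, its summed UMIs of C4b, Rbp4, Steap4 and Tnfsf13b had to exceed those of Slc7a10, Tcf21, Figf and Scube2. Fibroblasts that met all but this last condition are called resting Slc7a10 cells here, and those above the chemokine or the Fst and Tnc limit are called chemokine-high and Fst and Tnc cells.

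Labelling 4T1 cells, a mouse mammary carcinoma line, had been given into the vein, and lungs were taken on day 7 and dissociated. In the niche-labelling method, labelling tumour cells release a membrane-permeable mCherry protein that nearby cells take up, so that cells around a metastasis can be sorted by colour. CD45- cells, a gate that leaves out most blood-derived cells, were sorted into the Cherry_positive library, which held 99 of the cells described here, and the Cherry_negative library, which held 37. Each library is 1 sample. The series title speaks of radiation, while strain, age, irradiation of these lungs and the number of mice behind a library are not stated in the sources at hand. Both libraries carry the tumour cells' injection, so the Cherry_negative library is no tumour-free lung.

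Alveolar fibroblasts lie in the walls between the air sacs, beside the epithelium and the capillaries, and the transcription factor Tcf21 and the matrix protein nephronectin (Npnt) are known to mark them. Adventitial fibroblasts form sleeves around airways and larger vessels. Both kinds make extracellular matrix, and under inflammation fibroblasts can also secrete complement proteins, acute phase proteins and cytokines. Of the 6 marker genes, C4b encodes complement component C4, Rbp4 the carrier of retinol in plasma, Steap4 a metalloreductase of the cell membrane, Tnfsf13b the B cell survival factor BAFF, Mdk the heparin-binding growth factor midkine, and Serpina3n a secreted serine protease inhibitor of the acute phase.

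For 4 of these genes a promoter was at hand, and 3 of these promoters are shown. A link between their sequences and the marker levels below was not tested. Each is the 250 bases before the RefSeq start of the gene on GRCm38.p6, written 5′ to 3′ on the gene's strand, with capitals on the matches to 4 motifs searched on both strands. The motifs were a STAT type site (TTCNNNGAA), an NF-kappaB type site (GGG and TTTCC with NN between them), a C/EBP type site (TTGCNNAA) and an interferon-stimulated response type site (GAAA on either side of NN).
Rbp4 (chr19:38125322-38125571, minus strand): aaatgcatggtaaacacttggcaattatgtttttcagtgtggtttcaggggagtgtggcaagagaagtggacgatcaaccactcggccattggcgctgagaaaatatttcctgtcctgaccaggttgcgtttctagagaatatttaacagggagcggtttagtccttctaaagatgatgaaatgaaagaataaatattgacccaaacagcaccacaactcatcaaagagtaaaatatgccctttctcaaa
Steap4 (chr5:7960222-7960471, plus strand): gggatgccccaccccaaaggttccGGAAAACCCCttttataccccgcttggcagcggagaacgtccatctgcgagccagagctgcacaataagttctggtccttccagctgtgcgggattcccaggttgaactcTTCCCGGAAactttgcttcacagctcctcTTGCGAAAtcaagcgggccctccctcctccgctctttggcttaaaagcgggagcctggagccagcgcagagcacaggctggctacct
Serpina3n (chr12:104406458-104406707, plus strand): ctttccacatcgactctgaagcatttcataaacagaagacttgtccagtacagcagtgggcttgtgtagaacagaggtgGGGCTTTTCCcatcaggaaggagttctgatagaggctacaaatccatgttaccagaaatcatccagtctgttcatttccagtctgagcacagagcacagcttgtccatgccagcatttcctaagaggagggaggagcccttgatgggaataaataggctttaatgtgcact

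The Steap4 window held 1 match each to the NF-kappaB type site (GGAAAACCCC, bases -226 to -217 from the start), the STAT type site (TTCCCGGAA, -116 to -108) and the C/EBP type site (TTGCGAAA, -87 to -80). The Serpina3n window held the NF-kappaB type match GGGCTTTTCC at -171 to -162. Its RefSeq start lay 21 bases from the 5′ end of the gene in GENCODE. Bases just after the start were found in a GENCODE transcript for Rbp4, Steap4 and Tnfsf13b, but not for Serpina3n. The windows of Rbp4 and of Tnfsf13b (chr8:10006217-10006466) held none of the 4 motifs. Among 32851 mouse promoters of the same length, 1.41% held the NF-kappaB type site, 7.02% the STAT type site, 9.56% the C/EBP type site and 2.98% the interferon-stimulated response type site. No promoter is shown for C4b or Mdk. On GRCm38 the genes themselves lie at chr17:34728380-34743882 (C4b, minus strand), chr19:38116629-38125281 (Rbp4, minus), chr5:7960457-7982213 (Steap4, plus), chr8:10006467-10039072 (Tnfsf13b, plus), chr2:91929805-91932297 (Mdk, minus) and chr12:104406729-104414329 (Serpina3n, plus).

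The libraries held 1826 barcodes and 10094853 UMIs (Cherry_positive) and 2861 barcodes and 11632459 UMIs (Cherry_negative). The 99 Cherry_positive C4b and Rbp4 cells had 1943 to 23737 UMIs per cell (median 4135), and the 37 Cherry_negative cells had 1577 to 22057 (median 3917). Their median numbers of detected genes were 1596 and 1618. Levels below are UMIs summed over the cells of a library and given per 1000000 UMIs of those cells (CPM), from 478375 UMIs in the Cherry_positive and 164039 in the Cherry_negative cells. Brackets after levels, shares and ratios hold 95% intervals, which cover counting error only. With 1 library per side there is no replicate and no p-value, cells of a library are not replicates, and a ratio of at least 2 either way is used only to count genes.

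A few cells carried RNA of other lineages. In the Cherry_positive library 5 of the 99 cells, with 11.5% of the UMIs, and in the Cherry_negative library 2 of the 37, with 18.5%, held 3 or more UMIs of endothelial (Pecam1 and Cdh5 among them), epithelial (Epcam, Cdh1 and keratins) or immune genes (Ptprc and Tyrobp). The club cell markers, 4 of 4 detected, summed to 25108 CPM in the Cherry_positive cells and 371 CPM without those 5 cells, against 366 CPM in the Cherry_negative cells, where Scgb3a2 and Scgb3a1 were at 0. The type 2 alveolar epithelial markers summed to 247 CPM in the Cherry_positive cells, with Lamp3 and Slc34a2 at 0, against 30212 CPM in the Cherry_negative cells, and 1945 CPM there without its 2 cells. Carcinoma keratin and junction markers summed to 184 CPM (23.6 CPM without the 5 cells) in the Cherry_positive cells and 341 CPM (15.0 CPM without the 2 cells) in the Cherry_negative cells, with Krt14 and Cldn4 at 0 in both. The myeloid markers summed to 196 CPM (23.6 CPM without the 5 cells), with Csf1r at 0, against 1256 CPM (194 CPM without the 2 cells), where Lyz2 was the only 1 of 6 detected. Endothelial markers summed to 52.3 and 97.5 CPM, lymphoid markers were at 0 but for Cd3g in the Cherry_positive cells, and all 5 neutrophil markers were at 0 in the Cherry_negative cells. The 5 and 2 cells stay in the values below, and where they carry a result the value without them is given.

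The rule fixed the alveolar part of the label, and its Rbp4 part held only in some cells. The 8 alveolar fibroblast markers, 6 of which chose the cells, summed to 7112 CPM in Cherry_positive C4b and Rbp4 cells and 10481 CPM in resting cells, and to 10199 and 18828 CPM in the Cherry_negative library. The 6 adventitial markers, which are the adventitial genes of the rule, summed to 1444 CPM in C4b and Rbp4 cells, 1613 CPM in resting cells and 3982 CPM in adventitial fibroblasts of the Cherry_positive library. The same sums were 1542, 1986 and 7552 CPM in the Cherry_negative library. Without the cells with other-lineage RNA, the C4b and Rbp4 cells had 1602 CPM in the Cherry_positive and 1855 CPM in the Cherry_negative library. Of the alveolar markers the rule did not use, Inmt is given below. C4b had UMIs in 88 of 99 Cherry_positive and 31 of 37 Cherry_negative cells. Rbp4 had them in 30 of 99 and 19 of 37. The other markers were found in 61 and 21 cells (Steap4), 68 and 21 cells (Tnfsf13b), 46 and 22 cells (Mdk) and 85 and 14 cells (Serpina3n).

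The rule's last condition was met by a small margin in many cells. The sum of C4b, Rbp4, Steap4 and Tnfsf13b exceeded the sum of Slc7a10, Tcf21, Figf and Scube2 by a median of 4 UMIs (1 to 25) in the Cherry_positive and 3 UMIs (1 to 15) in the Cherry_negative cells. A margin of 1 UMI held for 19 and 11 cells, of 2 UMIs for 17 and 4, and of 3 or more for 63 and 22. Just outside, 38 Cherry_positive and 9 Cherry_negative cells had a margin of 0, and 37 and 7 had -1. C4b stood at 454 CPM in the Cherry_positive cells just inside (margins 1 and 2) and 201 CPM in those just outside (0 and -1), and at 398 and 251 CPM in the Cherry_negative cells. The margins thus ran through the limit with no gap, and C4b is itself a gene of the rule. Small UMI sums cannot show whether the cells form a continuous range or separate states, which was not tested.

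The levels of the 4 rule genes chose the cells and are given as a description. C4b stood at 918 CPM in the Cherry_positive and 591 CPM in the Cherry_negative cells, and reads of C4b and of its near-identical copy C4a can be split between them in counting. Resting cells held 181 and 64.7 CPM of it, and adventitial fibroblasts 389.9 and 521 CPM. Rbp4 ran the other way between libraries, at 242 CPM in the Cherry_positive and 415 CPM in the Cherry_negative cells, a ratio of 0.585 (0.43 to 0.801). Adventitial fibroblasts had more of it, with 315 and 697 CPM, and resting cells had 17.8 and 30.1 CPM. Steap4 (368 and 341 CPM) and Tnfsf13b (326 and 299 CPM) stood at much the same level in both libraries, with ratios of 1.08 (0.794 to 1.48) and 1.09 (0.787 to 1.54). In the Cherry_positive library the chemokine-high cells held 225 and the Fst and Tnc cells 158 CPM of C4b, and 28.1 and 9.29 CPM of Rbp4.

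Mdk and Serpina3n were not used by the rule. Mdk stood at 234 CPM in the Cherry_positive and 274 CPM in the Cherry_negative cells, against 109.9 and 77.1 CPM in resting cells of the same libraries, and the C4b and Rbp4 cells were higher by 2.13 (1.64 to 2.76) and 3.56 (2.43 to 5.16) times. Serpina3n followed the library more than the kind of fibroblast. It stood at 897 CPM in Cherry_positive and 189 CPM in Cherry_negative C4b and Rbp4 cells, a ratio of 4.75 (3.29 to 7.07), and at 618 and 160.4 CPM in resting cells, a ratio of 3.86 (3.27 to 4.56). Within a library the C4b and Rbp4 cells exceeded resting cells by 1.45 (1.29 to 1.63) and 1.18 (0.778 to 1.73) times, and the second interval includes 1.

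**Figure D1:**
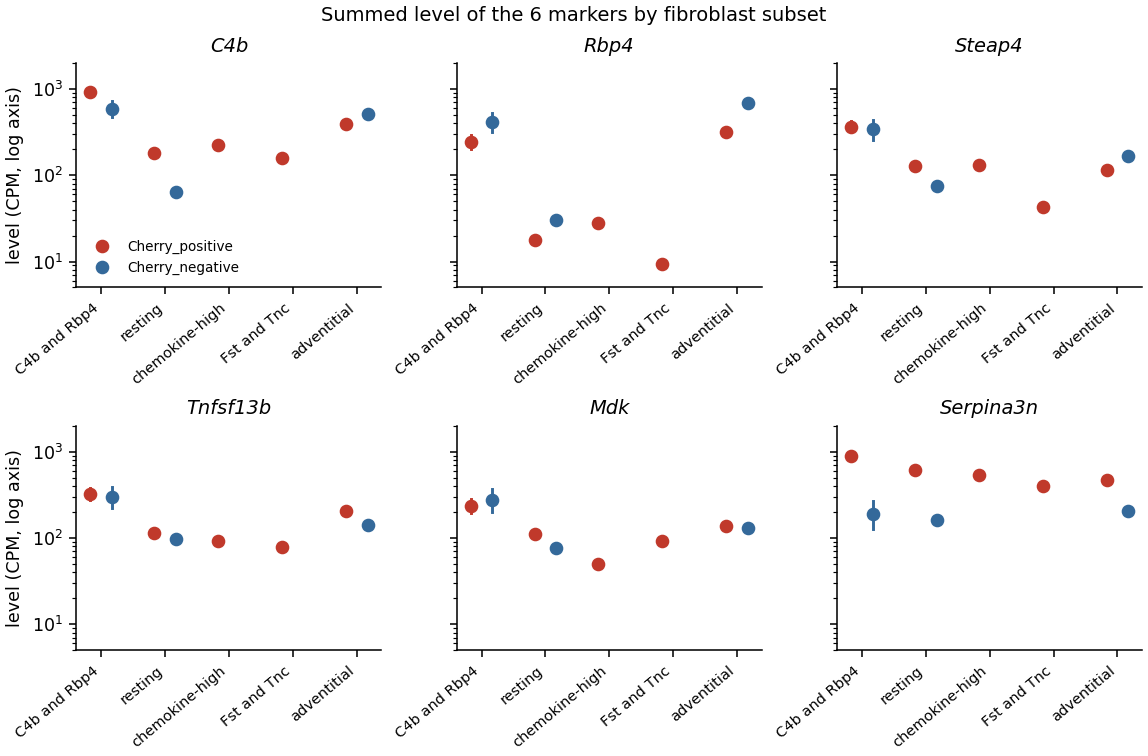
Summed level in CPM (log axis) of the 6 marker genes in 5 kinds of fibroblast, 1 point per library, with 95% counting intervals as lines for the C4b and Rbp4 cells; Cherry_negative chemokine-high and Fst and Tnc cells, 1 and 6 cells, are not drawn. Rbp4 stands highest in adventitial fibroblasts, and Serpina3n is higher in the Cherry_positive library in every kind drawn for both libraries.

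Shares of cells with a UMI depend on depth, so each cell was also thinned to 2000 UMIs, which left out 2 and 2 C4b and Rbp4 cells, 6 and 46 resting cells and 11 and 482 endothelial cells of the Cherry_positive and Cherry_negative libraries. C4b was then found in 73.2% of Cherry_positive and 65.7% of Cherry_negative C4b and Rbp4 cells (88.9% and 83.8% before thinning). Endothelial cells, which should lack it, showed 1.66% and 1.1% (3.57% and 1.28% before), from median depths of 3237 and 2445 UMIs. Rbp4 was found in 22.7% and 42.9% of C4b and Rbp4 cells and in 0.415% and 0.499% of endothelial cells after thinning. Serpina3n was found in 73.2% and 22.9% of C4b and Rbp4 cells, 52.7% and 19.1% of resting cells and 4.98% and 0.698% of endothelial cells. The Serpina3n shares lay above the endothelial background of their library. For C4b and Rbp4 the same holds in the C4b and Rbp4 cells, but the rule chose those cells on these genes.

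C4b and Rbp4 cells took a larger share of the Cherry_positive than of the Cherry_negative library. They were 5.59% (4.57 to 6.77) of filtered Cherry_positive cells and 1.32% (0.928 to 1.81) of filtered Cherry_negative cells, which differ by 4.25 times. Most of that gap came with alveolar fibroblasts as a whole, and among these the shares were 16% (99 of 620, 13.2 to 19.1) and 9.54% (37 of 388, 6.80 to 12.9), a ratio of 1.67. The rest of the alveolar fibroblasts divided differently between libraries. Resting cells made up 45.3% of the Cherry_positive and 88.7% of the Cherry_negative alveolar fibroblasts, chemokine-high cells 21.9% (136 cells) and 1 cell, and Fst and Tnc cells 16.8% (104 cells) and 1.55% (6 cells). Among alveolar fibroblasts below the chemokine and the Fst and Tnc limits, C4b and Rbp4 cells were 26.1% (21.7 to 30.8) in Cherry_positive cells and 9.71% (6.93 to 13.1) in Cherry_negative cells, a ratio of 2.68. The cells had been sorted, so these shares do not count cells of the intact lung, and C4b itself, which decides membership, was also higher in Cherry_positive resting cells.

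**Figure D2:**
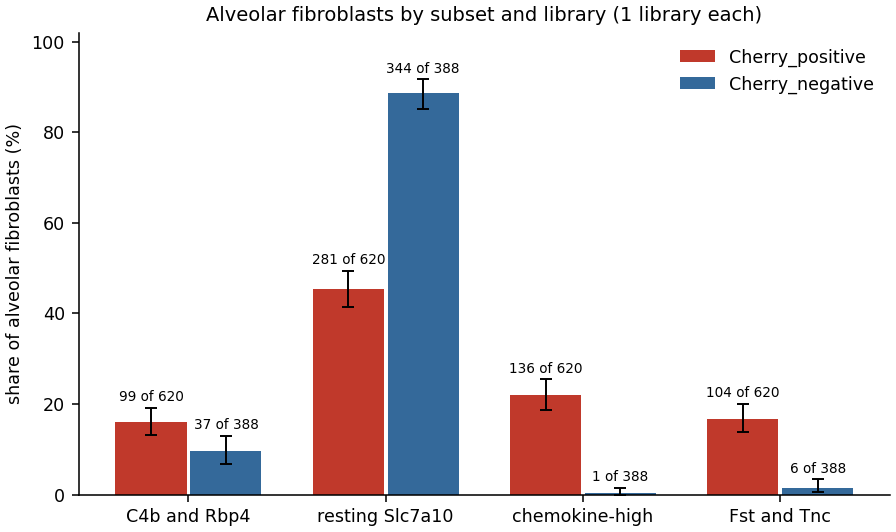
Share of the alveolar fibroblasts of each library, in percent, taken by the 4 kinds of alveolar fibroblast, with exact 95% binomial intervals and cell numbers. C4b and Rbp4 cells are 99 of 620 Cherry_positive and 37 of 388 Cherry_negative alveolar fibroblasts, and resting cells 281 and 344.

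The cells were not uniform in the genes that named them. Of the 4 rule genes, 15 Cherry_positive and 8 Cherry_negative cells held UMIs of only 1, 35 and 11 held 2, 34 and 10 held 3, and 15 and 8 held all 4. C4b alone was the most abundant of the 4 in 57 Cherry_positive and 16 Cherry_negative cells, and Rbp4 alone in 10 and 7. C4b reached 19 UMIs in a Cherry_positive cell (median 4) and 8 in a Cherry_negative cell (median 2). Rbp4 reached 16 UMIs (median 0) and 12 UMIs (median 1).

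Cells with and without an Rbp4 UMI differed alike in both libraries in some genes and in 1 library only in others. This split and the 36 genes looked at in it were chosen after the values had been seen. Beyond counting error, 5 of the 36 were higher and 5 lower in both libraries, 9 differed in Cherry_positive cells only, 6 in Cherry_negative cells only, and 11 in neither. The split was not counted over all genes, so whether these numbers exceed those of other genes is unknown. The split sets 30 Cherry_positive cells (median 5349 UMIs) against 69 (3377), and 19 Cherry_negative cells (3917) against 18 (3592). Of these, 1 and 4 Cherry_positive and 0 and 2 Cherry_negative cells held other-lineage RNA. Midkine stood at 372 CPM in Cherry_positive cells with Rbp4 and 164 CPM in those without, and at 436 and 143 CPM in Cherry_negative cells, ratios of 2.27 (1.54 to 3.36) and 3.04 (1.55 to 6.31). Cytoglobin (Cygb), a haem protein of fibroblasts, stood at 577 and 230.1 CPM in Cherry_positive and at 490.3 and 232 CPM in Cherry_negative cells with and without Rbp4. Cxcl12, the ligand of the receptor Cxcr4, stood at 974 and 589.5 CPM, and at 681 and 276 CPM. Inmt and Mfap4 were the other genes higher in both. Haptoglobin (Hp), an acute phase protein, ran the other way, with 608 CPM in Cherry_positive cells with Rbp4 and 1403 CPM in those without, and 368 and 1225 CPM in Cherry_negative cells, where the 111 UMIs of the cells without Rbp4 lay in 2 cells. Saa3, Timp1, Igfbp5 and Ces1d also had lower sums in both. Saa3 was found in 23 of 30 Cherry_positive cells with Rbp4 and 53 of 69 without. Its ratio there was 0.897 (0.845 to 0.953), and its 186 and 713 Cherry_negative UMIs lay in 3 and 5 cells. Igfbp5, most of whose UMIs came from 1 cell in each library, was found in 3 of 30 and 4 of 69 Cherry_positive cells. In the Cherry_negative library it was found in 7 of 19 cells with Rbp4 and 3 of 18 without. Il6 had ratios of 0.558 (0.406 to 0.756) in Cherry_positive and 1.3 (0.658 to 2.57) in Cherry_negative cells, and Igfbp4 1.04 (0.885 to 1.22) and 2.14 (1.54 to 2.99). Lcn2 had ratios of 0.918 (0.714 to 1.17) and 0.0982 (0.0383 to 0.211). The adventitial markers summed to 1936 CPM in cells with Rbp4 and 1195 CPM in cells without in the Cherry_positive library, and to 1770 and 1357 CPM in the Cherry_negative library, and their part in these differences was not tested.

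The acute phase gene Saa3, which encodes serum amyloid A, was concentrated in some of the cells. Of the Cherry_positive cells, 41 of 99 (41.4%, 31.6 to 51.8) held 10 or more Saa3 UMIs, with a median of 53 and up to 726, while 35 held 1 to 9 and 23 held none. Of the Cherry_negative cells, 6 of 37 (16.2%, 6.19 to 32.0) held 81 to 305, 2 held 1 to 9 and 29 held none. Cells with 10 or more were 21.7% of Cherry_positive and 1.16% of Cherry_negative resting cells, 55.1% of Cherry_positive chemokine-high cells, and 21.0% of Cherry_positive and 3.91% of Cherry_negative adventitial fibroblasts. The limit of 10 UMIs was set after the values had been seen.

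In the Cherry_negative library the 6 Saa3-rich cells also held most UMIs of Lcn2 (85, against 10 in the other 31 cells) and haptoglobin (119 and 19), and fewer than the other cells of C3 (69 and 78), Timp1 (39 and 47), Steap4 (20 and 36) and Serpina3n (10 and 21). Per UMI the 6 cells were higher in all of these. The iron-binding lipocalin Lcn2 stood at 3611 CPM in them and 71.2 CPM in the other 31 cells. Haptoglobin stood at 5056 and 135 CPM, complement C3 at 2932 and 555 CPM, Steap4 at 849.7 and 256 CPM, Serpina3n at 425 and 149 CPM, and the metalloproteinase inhibitor Timp1 at 1657 and 335 CPM. Haptoglobin was found in 4 of the 6 cells, and 111 of the haptoglobin UMIs of this library lay in 2 cells without Rbp4. None of the Saa3-rich cells of either library held 3 UMIs of another lineage. In the Cherry_positive library the 41 Saa3-rich cells were also higher in Lcn2 (1056 CPM against 320.0 CPM in the other 58), C3 (2106 against 1412), Steap4 (504 against 265) and Timp1 (2077 against 938). Haptoglobin was lower in them, at 867 CPM against 1339 CPM. Of 36 genes looked at in this split, 8 were higher and 1 lower in both libraries beyond counting error. A further 2 went opposite ways, 7 differed in Cherry_positive cells only, 3 in Cherry_negative cells only, and 15 in neither. The lower gene was Igfbp6, with ratios of 0.451 in Cherry_positive and 0.326 in Cherry_negative cells. This split was not counted over all genes either. At least 1 Saa3 UMI was also found in 36.1% of Cherry_positive and 2.42% of Cherry_negative endothelial cells. Whether these UMIs were free RNA from other cells was not tested.

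**Figure D3:**
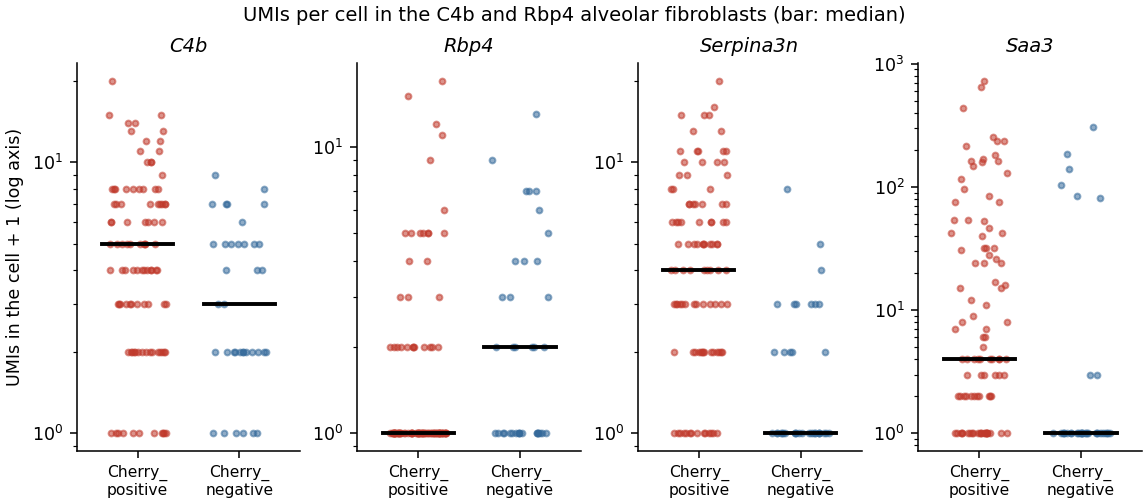
UMIs of C4b, Rbp4, Serpina3n and Saa3 in each C4b and Rbp4 cell, plotted as UMIs + 1 on a log axis, with 99 Cherry_positive and 37 Cherry_negative cells as points and the median as a bar. The 6 Cherry_negative cells high in Saa3 stand apart from the 29 at 0, while the Cherry_positive cells spread from 0 to 726.

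Against resting cells, the C4b and Rbp4 cells had less of the alveolar fibroblast genes and more of several secreted proteins. Some of the higher genes, given below, stood higher still in adventitial fibroblasts. The 6 adventitial markers cannot settle adventitial likeness, since the rule held their sum below that of the alveolar genes in every cell. The rule also chose the cells on their contrast with resting cells, so these values are a description. Of 5914 genes with enough UMIs in the Cherry_positive library, 145 (2.45%) were at least 2-fold higher and 208 (3.52%) at least 2-fold lower. Of 5199 in the Cherry_negative library 234 (4.5%) were higher and 598 (11.5%) lower, and of 4968 measured in both, 41 (0.825%) were higher and 81 (1.63%) lower in both.

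Among the 12 genes named by rule as higher in both libraries, cytoglobin stood at 347 CPM in C4b and Rbp4 cells and 71.9 CPM in resting cells of the Cherry_positive library, and at 347 and 54.9 CPM in the Cherry_negative library, ratios of 4.82 (3.71 to 6.31) and 6.33 (4.34 to 9.21). Adventitial fibroblasts held 640.5 and 862 CPM. Cytoglobin UMIs were found in 36.1% of Cherry_positive and 57.1% of Cherry_negative C4b and Rbp4 cells thinned to 2000 UMIs, against 12% and 6.04% of resting cells. The chemokines Cxcl14 and Cxcl12 were higher by 3.67 and 3.03 times and by 2.8 and 7.48 times. Cxcl14 stood at 1199.9 CPM in C4b and Rbp4 cells and 327 CPM in resting cells of the Cherry_positive library, and at 835 and 276 CPM in the Cherry_negative library. Cxcl12 stood at 719 and 257 CPM, and at 457 and 61.1 CPM.

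The matrix metalloproteinase Mmp3 was higher by 4.92 and 16.9 times in the Cherry_positive and Cherry_negative libraries, and the microfibril protein Mfap5 by 2.99 and 3.99 times. The Cherry_negative Mmp3 value rests on few UMIs, 14 in 3 of 19 cells with Rbp4 and 13 in 4 of 18 without. In that library 2.03% of resting cells held an Mmp3 UMI. Adventitial fibroblasts held more of both, with 454 and 325 CPM of Mmp3 and 709 and 1151 CPM of Mfap5. Complement C3, the component on which all activation routes meet, was higher by 2.25 and 4.01 times, and the lysosomal protease cathepsin C (Ctsc) by 3.66 and 5.55 times. In the Cherry_negative library 69 C3 UMIs lay in the 6 Saa3-rich cells and 78 in the other 31, which stood at 555 CPM. Saa3 was higher by 2.39 and 19 times, and in the Cherry_negative library this rested on the 6 cells described above. The nuclear receptor gene Nr4a2 and the gene models Gm20186 and Gm12840 were higher by 4.43, 3.61 and 3.83 times in the Cherry_positive and 3.84, 6.28 and 2.77 times in the Cherry_negative library. Igfbp5 was the last of the 12, and 64.9% and 60.9% of its UMIs came from 1 cell in each library.

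Of the IGF binding proteins, which hold insulin-like growth factors in the extracellular space, Igfbp4 and Igfbp3 went opposite ways. Igfbp4 stood at 1401 CPM in C4b and Rbp4 cells and 700.0 CPM in resting cells of the Cherry_positive library, and at 999.8 and 125 CPM in the Cherry_negative library, ratios of 2.0 (1.81 to 2.22) and 8.0 (6.35 to 10.1). Igfbp3 stood at 16.7 and 109 CPM, and at 97.5 and 483 CPM, ratios of 0.153 (0.0648 to 0.311) and 0.202 (0.115 to 0.331). Igfbp6 stood at 401 and 128 CPM, and at 707 and 301 CPM. Adventitial fibroblasts held more Igfbp4 (1896 and 2002 CPM) and Igfbp6 (709 and 2045 CPM).

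The lower genes were led by Igfbp3 and included further genes of alveolar fibroblasts. The microfibril protein Mfap4 stood at 4639 CPM in C4b and Rbp4 cells and 11046 CPM in resting cells of the Cherry_positive library, and at 5523 and 17969 CPM in the Cherry_negative library. Aldh1a1, which makes retinoic acid from retinaldehyde, stood at 269.7 and 613 CPM, and at 274 and 962 CPM. The methyltransferase-like gene Mettl7a1 had ratios of 0.279 and 0.206, the cysteine dioxygenase Cdo1 0.395 and 0.26, the vasoactive peptide adrenomedullin (Adm) 0.298 and 0.34, and the cell cycle inhibitor Cdkn2c 0.356 and 0.146. Ccdc42, Ppp1r14a, Pkig, Lxn and Txnip completed the 12, with ratios of 0.227 to 0.484 in the Cherry_positive library.

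By gene list, the 22 measured alveolar fibroblast genes had a median log2 ratio to resting cells of -0.78 in the Cherry_positive library and -0.89 in the Cherry_negative one, against -0.06 and -0.09 over all genes. Members of a list needed 10 UMIs, while the values over all genes come from genes with at least 30. Without the rule's own genes the medians were -0.50 and -0.72 over 14 genes. Of those that the rule did not use, Inmt, an amine methyltransferase, stood at 4116 CPM in C4b and Rbp4 cells and 5602 CPM in resting cells of the Cherry_positive library, and at 7206 and 11737 CPM in the Cherry_negative library. The complement genes had medians of 0.63 and 0.34, with 6 and 7 of 15 at least 2-fold higher and none 2-fold lower. Without C4b, whose place the rule fixed, the medians were 0.63 and 0.29, with 5 and 6 of 14 at least 2-fold higher. C2, which pairs with C4 in the classical convertase, stood at 153 CPM in C4b and Rbp4 cells and 71.1 CPM in resting cells of the Cherry_positive library, and at 128 and 24.8 CPM in the Cherry_negative library. The cytokines for leukocytes had medians of 0.78 and 0.88 (0.70 and 0.87 without the rule's Tnfsf13b), and the IGF genes 0.76 and 0.72.

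Chemokines had medians of 0.51 and 0.81, NF-kappaB targets 0.36 and 0.51, and MHC class I genes 0.37 and 0.32 in the Cherry_positive and Cherry_negative libraries. The MHC class II genes had 1.30 and 2.35, with 5 of 5 and 4 of 4 at least 2-fold higher, and 1.26 and 0.24 when cells with other-lineage RNA were left out of both kinds of cell.

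Several lists stood near or below resting cells. The interferon gamma list had medians of -0.02 and -0.49, the type I interferon list -0.38 and -0.02, the immediate early genes -0.24 and -0.65, and the retinoid genes 0.08 and 0.06 (0.03 and -0.03 without Rbp4). Growth factors went both ways, with a median of 0.13 in the Cherry_positive library and -0.16 in the Cherry_negative one. The Wnt antagonist Sfrp1 stood at 188 CPM in C4b and Rbp4 cells and 37.2 CPM in resting cells of the Cherry_positive library, and at 36.6 and 8.86 CPM in the Cherry_negative library. Wnt2, a ligand of alveolar fibroblasts, was lower, at 113 and 191 CPM, and at 146 and 282 CPM.

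**Figure D4:**
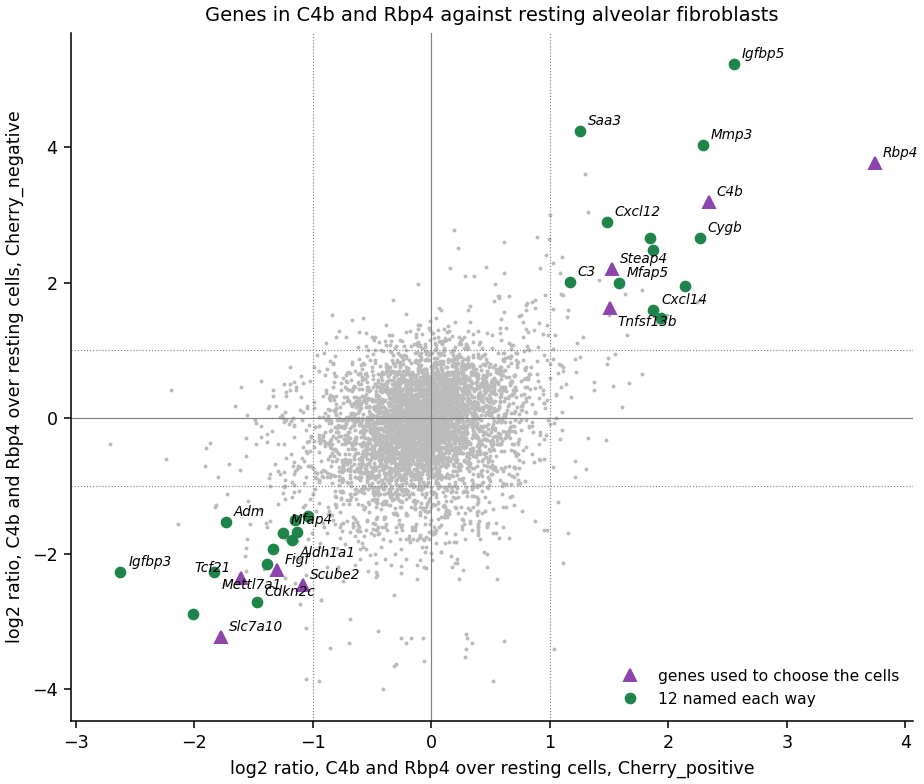
Log2 ratio of C4b and Rbp4 over resting cells for each gene measured in both libraries, Cherry_positive on the horizontal and Cherry_negative on the vertical axis, with dotted lines at 2-fold. Triangles are genes of the rule, circles the 12 genes named each way, and Cygb, Mmp3 and Cxcl12 lie high in both libraries while Igfbp3 and Mettl7a1 lie low in both.

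Between libraries, the Cherry_positive C4b and Rbp4 cells were higher than the Cherry_negative ones in interferon gamma response genes and chemokines. Of 2884 genes that reached 30 UMIs in the 2 libraries together, 177 (6.14%) were at least 2-fold higher and 75 (2.6%) at least 2-fold lower in the Cherry_positive cells, and the median log2 ratio over all of them was 0.00. In resting cells 219 of 7118 genes (3.08%) were at least 2-fold higher and 283 (3.98%) lower in the Cherry_positive library. Trimmed-mean scaling moved every log2 ratio between libraries in the C4b and Rbp4 cells up by 0.12, and list medians below are to be read with that shift. List members needed 10 UMIs, against 30 for all genes, so list counts and all-gene shares stand on unlike thresholds.

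Of 14 measured interferon gamma response genes, 8 were at least 2-fold higher in the Cherry_positive cells and 0 lower, with a median log2 ratio of 1.37, against 1.01 in resting cells. The GTPase Iigp1, which attacks the vacuoles of intracellular pathogens, stood at 937 CPM in Cherry_positive and 262 CPM in Cherry_negative C4b and Rbp4 cells, a ratio of 3.57 (2.61 to 5.01). The related GTPases Igtp and Irgm1 stood at 129.6 and 24.4 CPM and at 87.8 and 24.4 CPM. The guanylate-binding proteins Gbp4 and Gbp2 stood at 71 UMIs in Cherry_positive and 1 UMI in Cherry_negative cells (24.3, 4.23 to 975) and at 171 and 73.2 CPM. Fam26f had 26 UMIs in Cherry_positive and 0 in Cherry_negative cells, at least 2.97-fold higher when 3 UMIs are set for the 0. Irf1, a transcription factor of this response, differed less than its counting error, at 109 and 91.4 CPM (1.19, 0.659 to 2.27).

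For type I interferon the median was 0.60 over 14 genes (0.48 in resting cells), with 4 at least 2-fold higher and 1 lower. Isg15, a ubiquitin-like modifier, stood at 167 CPM in Cherry_positive and 54.9 CPM in Cherry_negative cells, and the virus-tethering protein Bst2 at 459.9 and 213 CPM. Ifit3 was the lower gene, at 37.6 and 85.3 CPM (18 and 14 UMIs). Of the 16 MHC class I genes 13 were higher in the Cherry_positive cells, 3 of them at least 2-fold, with a median of 0.59. The class I light chain B2m stood at 4785 and 2560.4 CPM (1.87, 1.68 to 2.08), the immunoproteasome subunit Psmb8 at 215 and 91.4 CPM, and the peptide transporter Tap1 at 98.2 and 42.7 CPM. Members of the H2-Q family share reads, and their values are uncertain.

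The MHC class II genes gave no usable contrast. All 5 measured were lower in the Cherry_positive cells, with a median of -2.01, but 94.3% of the Cherry_negative UMIs of Cd74, the invariant chain, lay in 1 cell, and without the cells holding other-lineage RNA the median was 0.74.

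Of 15 measured complement genes 12 were higher in the Cherry_positive cells, 3 of them at least 2-fold, and none was 2-fold lower. The median log2 ratio was 0.49, against 0.33 in resting cells, and 0.43 without the rule's C4b. With cells thinned to 2000 UMIs before the rule it was 0.19. The C1 proteases C1ra and C1s1 stood at 759 CPM in Cherry_positive and 244 CPM in Cherry_negative cells (3.11, 2.24 to 4.43) and at 544 and 262 CPM (2.07, 1.5 to 2.93). Factor B (Cfb) of the alternative pathway stood at 234 and 91.4 CPM (2.56, 1.49 to 4.73), and 60% of its Cherry_negative UMIs came from 1 cell. C3 stood at 1712 and 896 CPM (1.91, 1.6 to 2.29). Serping1, the C1 inhibitor, differed less, at 2454 and 1749.6 CPM (1.4, 1.23 to 1.6). C2 did not differ beyond counting error in these cells (1.19, 0.725 to 2.04), and stood in resting cells at 71.1 and 24.8 CPM.

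The acute phase list had a median of 0.55 in the C4b and Rbp4 cells and 0.87 in resting cells, with 5 of 17 genes at least 2-fold higher and none lower. Serpina3n, given above, was among the 5. The receptor chains Il6st and Osmr, which carry signals of the IL-6 family, stood at 247 CPM in Cherry_positive and 85.3 CPM in Cherry_negative cells (2.89, 1.66 to 5.45) and at 128 and 48.8 CPM (2.61, 1.25 to 6.33). Saa1, whose reads can also come from its close copy Saa2, had 70 and 2 UMIs (12, 3.2 to 101) in 8 and 1 cells. Saa3 and Lcn2 separated the libraries less here than in resting cells. Saa3 stood at 10534 CPM in Cherry_positive and 5480.4 CPM in Cherry_negative C4b and Rbp4 cells and at 4406 and 289 CPM in resting cells, and Lcn2 at 638 and 579 CPM and at 572 and 125 CPM, a difference between kinds of cell that was not tested. The signalling inhibitor Socs3 was lower in the Cherry_positive cells, at 257 and 494 CPM (0.521, 0.39 to 0.698).

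NF-kappaB targets had a median of 0.56 (0.53 in resting cells), with 6 of 18 at least 2-fold higher and none lower. The NF-kappaB cofactor Nfkbiz stood at 330.3 CPM in Cherry_positive and 109.7 CPM in Cherry_negative cells (3.01, 1.84 to 5.21), and at 264 and 289.7 CPM in resting cells. The mitochondrial superoxide dismutase Sod2 stood at 629 and 287 CPM (2.2, 1.61 to 3.05) and the cytokine Il6 at 521 and 238 CPM (2.19, 1.56 to 3.15). The adhesion molecules Vcam1 (978 and 927 CPM) and Icam1 (167 and 249.9 CPM) were not higher beyond counting error.

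All 11 measured chemokines were higher in the Cherry_positive cells, 8 of them at least 2-fold, with a median of 1.63, against 1.92 in resting cells. The rule capped Cxcl9, Cxcl10 and Ccl7 in both kinds of cell, and without them the medians were 1.38 and 1.66. The neutrophil attractant Cxcl1 stood at 939 CPM in Cherry_positive and 427 CPM in Cherry_negative cells (2.2, 1.71 to 2.87), and the monocyte attractant Ccl2 at 192 and 30.5 CPM (6.31, 2.61 to 19.9). Ccl2 in resting cells stood at 311 and 260.5 CPM. The steady-state chemokines Cxcl12 (1.57, 1.22 to 2.05) and Cxcl14 (1.44, 1.19 to 1.74) differed less. The B cell attractant Cxcl13 had 57 UMIs in Cherry_positive and 1 in Cherry_negative cells, and 73.7% of the Cherry_positive UMIs came from 1 cell.

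Among the cytokines for leukocytes other than the rule's Tnfsf13b, 3 of 6 were at least 2-fold higher in the Cherry_positive cells and none lower, with a median of 0.90, against 0.34 in resting cells. Stem cell factor (Kitl) stood at 96.2 CPM in Cherry_positive and 18.3 CPM in Cherry_negative cells (5.26, 1.69 to 26.4) and at 91.3 and 83.3 CPM in resting cells. Its Cherry_negative value rests on 3 UMIs. The IL-6 family cytokine Lif stood at 60.6 and 18.3 CPM (3.31, 1.03 to 17), on 29 and 3 UMIs.

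The matrix genes differed by less. Of 27 measured, 2 were at least 2-fold higher in the Cherry_positive cells and none lower, with a median of 0.25 (0.22 in resting cells). Without the rule's genes, Col1a1 and Col3a1 among them, the medians were 0.06 and 0.22. The fibrillar collagens Col3a1 and Col1a1 stood at 2308 and 1280.2 CPM (1.8, 1.55 to 2.1) and at 1018 and 652 CPM (1.56, 1.26 to 1.94), the cross-linking enzyme Lox at 228 and 109.7 CPM, and elastin (Eln) at 884 and 963 CPM. The metalloproteinase inhibitors went opposite ways, with Timp1 at 1429.8 CPM in Cherry_positive and 524 CPM in Cherry_negative cells (2.73, 2.18 to 3.45) and Timp3 at 456 and 975 CPM (0.467, 0.379 to 0.577). The list of metalloproteinases and protease inhibitors had a median of 0.28.

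Of 22 alveolar fibroblast genes 7 were higher and the others lower in the Cherry_positive cells, with a median of -0.31, against -0.80 in resting cells. Without the rule's genes, 3 of 14 were higher, with medians of -0.51 and -0.72. Inmt stood at 4116 and 7206 CPM (0.571, 0.531 to 0.614) and Pcolce2, an enhancer of procollagen cleavage, at 424 and 1061 CPM (0.40, 0.325 to 0.493). The carboxylesterase Ces1d, a gene of the rule, was the 1 gene at least 2-fold higher, at 1221 CPM in Cherry_positive and 543 CPM in Cherry_negative cells (2.25, 1.8 to 2.85), and at 2089 and 1854 CPM in resting cells. The retinoid list had a median of -0.36 over 8 genes, none of them past 2-fold, and -0.04 without Rbp4. Apart from Rbp4, Aldh1a1 stood at 269.7 and 274 CPM and the retinol esterifying enzyme Lrat at 157 and 122 CPM, and neither differed beyond counting error.

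The other lists had medians near 0, with growth factors at -0.15, lipid handling at -0.18, IGF genes at 0.05, metal and oxidative stress genes at 0.20 and endoplasmic reticulum stress genes at 0.28. Within them, Sfrp1 was higher in the Cherry_positive cells (5.14, 2.27 to 14.4), and Gdf10 and Igfbp3 were lower (0.294, 0.124 to 0.685, and 0.171, 0.0635 to 0.425). Apolipoprotein D (Apod) had 40 UMIs in Cherry_positive and 0 in Cherry_negative cells, at least 4.57-fold higher, and stood at 88.1 and 36.3 CPM in resting cells. The immediate early genes, which tissue dissociation is known to raise, had a median of 0.18. Fos stood at 3621 CPM in Cherry_positive and 3877 CPM in Cherry_negative C4b and Rbp4 cells, and at 4456 and 6772 CPM in resting cells. The cell cycle list had 8 measured genes and a median of 1.39, and Ccnb1, Ccna2, Birc5, Ube2c and Cenpf each had all their Cherry_positive UMIs in 1 cell and none outside the cells with other-lineage RNA.

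The genes named by rule for the contrast between libraries were partly RNA of other lineages. Of the 12 higher ones, Scgb1a1 and Scgb3a2 are club cell secretoglobins, with 98.5% and 99.4% of their Cherry_positive UMIs in 1 cell, and the calcium-binding protein S100a4 had 91.8% in 1 cell. Gbp4, Iigp1, Ccl2, Cxcl13, Saa1, Serpina3n and Apod are given above. The chemerin-binding receptor Ccrl2 had 50 and 1 UMIs (17.1, 2.94 to 691), and the glycolytic enzyme Eno1, which has a near-identical copy, had a ratio of 7.63, and 3.39 without the cells holding other-lineage RNA. Of the 12 lower ones, Sftpc, Ager, Sftpd, S100g, Slc34a2, Napsa, Cldn3 and Lpcat1 are epithelial genes with at least 84.6% of their Cherry_negative UMIs in 1 cell. The other 4 were Pcolce2, Igfbp5, the dicarbonyl reductase Dcxr and the dipeptidase Dpep1, and Dpep1 stood at 278 CPM in Cherry_positive and 683 CPM in Cherry_negative cells (0.407, 0.314 to 0.528). Without the 5 and 2 cells, Igfbp5 and Dcxr had ratios of 0.561 and 0.539.

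Ranked without those cells, the first 12 higher genes also held the lysosomal gene Dram1, the G protein regulator Rgs2, the inositol synthase Isyna1 and Sfrp1. The first 12 lower genes were then Pcolce2, Dpep1, Akap12, Timp3, Inmt, Fhl1, Adm, 1810010H24Rik, Mamdc2, Gsn, Igfbp6 and Chmp3. This ranking was added after the values had been seen.

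**Figure D5:**
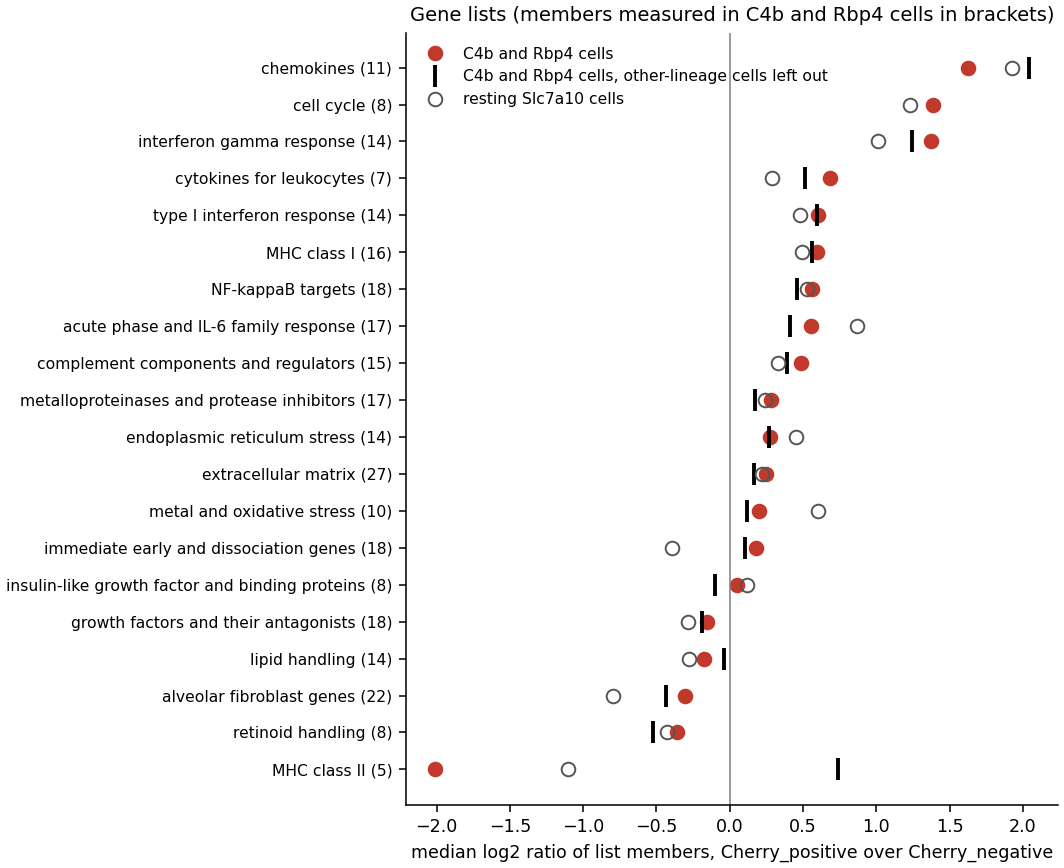
Median log2 ratio of Cherry_positive over Cherry_negative cells for 20 gene lists, in C4b and Rbp4 cells (filled points), in C4b and Rbp4 cells without those holding other-lineage RNA (bars) and in resting cells (open points). Chemokines stand highest in both kinds of cell, followed by the cell cycle list and the interferon gamma response genes, alveolar fibroblast and retinoid genes lie below 0 in both, and the MHC class II median changes sign without the cells holding other-lineage RNA.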

How the data were processed

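The deposited matrices hold raw counts of UMIs per gene and cell barcode for 27998 gene IDs, per the labels of a Chromium single-cell 3′ kit on lung cells. Reads were processed with Cell Ranger 2.1.1 and the build mm10, and Seurat 4.0.2 and R 4.0.3 are also named, per the submitters' processing notes, with settings not given in the sources used here. Deposited files of gene IDs, symbols and barcodes were used as given. The labels give 1 Cherry_positive and 1 Cherry_negative library, and nothing in them pairs samples.

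Here, cells needed at least 500 genes and at most 10% mitochondrial UMIs (which left out 56 Cherry_positive and 50 Cherry_negative barcodes). No doublet caller was run. The libraries share 13 barcode sequences, none of them among the C4b and Rbp4 cells. The members, the lists and the tests were chosen with earlier results of these data known. A fibroblast needed at least 4 UMIs of Col1a1, Col1a2, Col3a1, Bgn and Dcn, more than of endothelial genes, and at least 2 of the 6 alveolar genes.

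UMIs were summed over cells and divided by the group's total (CPM). Ratios carry the 95% interval of the matching binomial share, CPM exact Poisson and shares Clopper-Pearson intervals. Genes needed 30 UMIs over both groups to be counted, with 0.5 added to each sum, and list members 10. Lists needed 3 such members. A sum of 0 was set against 3 UMIs. Named genes were those with 20 CPM in either group, 12 each way, with the largest interval bound nearest 1, and against resting cells 2-fold in both libraries. Genes of the rule, mitochondrial, ribosomal, haemoglobin and immunoglobulin genes, shared symbols, and genes 10 times higher in endothelial, epithelial or immune cells were left out of these ranks. Cebpd, Cxcl11 and Mx2 were not found under those symbols, and shared symbols such as Ccl19 stayed out of list medians. Counting was tested on simulated Poisson sums, which hold no clumping of UMIs in single cells. The intervals of genes with such clumping were thus not tested. Positions come from GENCODE M21 and promoters from RefSeq (GRCm38.p6). Alternatives were stricter cell filters and limits, thinning, trimmed-mean scaling, means per cell, removal of free RNA, leaving out cells with other-lineage RNA, leaving the rule's genes out of the lists, and no filter on counts. Python 3.11.15, numpy 2.4.6, scipy 1.17.1, pandas 2.3.3 and matplotlib 3.10.9 were used.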

Additional observations from a re-analysis of the deposited data

Results flagged for a closer look

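The immediate early and dissociation genes had median differences between libraries of opposite sign in the C4b and Rbp4 cells and in resting cells. Their median log2 ratio of Cherry_positive over Cherry_negative cells was 0.18 in the C4b and Rbp4 cells and -0.40 in the resting Slc7a10 cells. Without cells holding other-lineage RNA the first value was 0.10. Of the measured genes 13 of 18 were higher in the Cherry_positive C4b and Rbp4 cells, 1 of them at least 2-fold, and 4 of 19 in the resting cells. Dusp1, a phosphatase induced by stress, stood at 1102 CPM in Cherry_positive and 1091 CPM in Cherry_negative C4b and Rbp4 cells, and at 1879 and 2864 CPM in resting cells. Jund, a component of the AP-1 factor, stood at 1085 and 1414 CPM, and at 1338 and 3119 CPM. The difference between the kinds of cell was not tested, since each has 1 library per side.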

How the results depend on the processing

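With 1 library per side, the spread between lungs is unknown, and 37 Cherry_negative cells limit every value of that library. No paired analysis was possible because each group has 1 library. Of the values of shares, gene counts and list medians under the alternatives, 252 stayed close to the reported value, 14 moved and 1 changed sign. Requiring a margin of 3 UMIs gave 3.56% of Cherry_positive and 0.783% of Cherry_negative filtered cells, and 10.2% and 5.67% of alveolar fibroblasts. Thinning before the rule gave 19.7% of Cherry_positive alveolar fibroblasts, 79 genes at least 2-fold higher between libraries, 14 higher and 43 lower than resting cells in both libraries, and a complement median of 0.19. Without a filter on low counts, 1427 genes were 2-fold higher and 2436 lower between libraries, and 466 higher and 1050 lower than resting cells in both, since genes with a few UMIs then count. The MHC class II median between libraries was 0.74 without cells holding other-lineage RNA and -0.52 as a mean CPM per cell. Among single genes and lists against resting cells, 928 values stayed close, 131 moved and 5 changed sign. These 5 were MHC class II against Cherry_negative resting cells at a margin of 3 UMIs (-0.51), Scgb3a2 (-1.80) and S100a4 (-0.22) after thinning, and Napsa (0.50) and Cldn3 (0.99) at a margin of 3 UMIs. Leaving the rule's own genes out of the lists, an alternative added after the values had been seen, took the alveolar fibroblast median against Cherry_positive resting cells to -0.50. Apart from the leaving out of the other-lineage cells, where the named cells hold the RNA, the cause was not tested.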
